A study of Mus musculus with 9 samples.

Results

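The genes described here are the 7 globin genes Hba-a1, Hba-a2, Hba-x, Hbb-bs, Hbb-bt, Hbb-y and Hbb-bh1, together with Slc4a1, Alas2 and Klf1, 10 of the 35275 genes in the count table. They were chosen by name as genes of the red cell, and their identifiers were matched through an annotation of the mouse build GRCm38. RNA-seq was done on the front of the eye of newborn mice (P0), that is the cornea, iris, ciliary body and drainage tissue without the lens. The mutant libraries, 1 to 6, came from Col4a1+/G1344D mice, which carry 1 copy of a glycine substitution in the basement membrane collagen Col4a1. The libraries they were set against, wildtypes 1 to 3, came from Col4a1+/+ mice of the same age. A library is a pool of 4 eyes from 2 mice, and p-values refer to the spread among such pools. The sources used here do not give the strain.

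Haemoglobin is built from alpha-like and beta-like globin chains, each holding a haem group, and the genes lie in clusters whose embryonic members are used by the first, yolk sac red cells and whose adult members are used by the red cells of the fetal liver and bone marrow. Circulating red cells still hold large amounts of globin mRNA in the newborn, while the transcription factor Klf1 is made mainly in nucleated precursors, where it switches on the adult beta globin genes, haem synthesis genes and membrane protein genes. Globin RNA in a dissected tissue is usually read as coming from blood in its vessels or outside them. In bulk tissue, fewer cells of a type and less RNA per cell cannot be told apart.

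The alpha-like genes lie on chromosome 11 on the + strand, with Hba-x at chr11:32276400-32278116, Hba-a1 at chr11:32283511-32284465 and Hba-a2 at chr11:32296489-32297298 (GRCm38). The beta-like genes lie on the - strand of chromosome 7, with Hbb-bt at chr7:103812524-103813996, Hbb-bs at chr7:103826534-103828096, Hbb-bh1 at chr7:103841637-103843164 and Hbb-y at chr7:103851749-103853216. Slc4a1 lies at chr11:102348824-102366203 on the - strand, Alas2 at chrX:150547375-150570638 on the + strand and Klf1 at chr8:84901928-84905291 on the + strand. Alas2 shares 372 exon bases with genes on the opposite strand, Apex2 and Mir3620, and no source used here gives the strand setting of the counting. Apex2 averaged 11.2 ± 1.18 CPM (counts scaled to library size) in mutants and 11.2 ± 0.667 CPM in wildtypes (SD, n = 6 and 3). The other 9 genes overlap no annotated gene.

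RefSeq promoters, the 250 bases before the start of transcription in GRCm38.p6, were available for 8 of the 10 genes, all but Hbb-bh1 and Slc4a1. Promoters of an adult alpha globin, an adult beta globin, the haem synthesis enzyme Alas2 and Klf1 are shown because each holds GATAA and CACCC, although in every mutant library Klf1 was lower and the other 3 genes higher than in any wildtype library. Capitals mark each match, on either strand, to GATAA (the core bound by GATA factors), CACCC (the core bound by Klf1 and related factors) or CCAAT (the CCAAT box). A match on the opposite strand is shown as its reverse complement. The windows are chr11:32283422-32283671 (+) for Hba-a1, chr7:103827929-103828178 (-) for Hbb-bs, chrX:150547167-150547416 (+) for Alas2 and chr8:84901732-84901981 (+) for Klf1.
Hba-a1: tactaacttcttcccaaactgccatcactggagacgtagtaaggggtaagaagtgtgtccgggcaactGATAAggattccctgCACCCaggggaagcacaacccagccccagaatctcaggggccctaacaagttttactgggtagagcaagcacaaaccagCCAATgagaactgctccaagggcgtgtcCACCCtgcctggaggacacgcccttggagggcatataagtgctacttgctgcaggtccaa
Hbb-bs: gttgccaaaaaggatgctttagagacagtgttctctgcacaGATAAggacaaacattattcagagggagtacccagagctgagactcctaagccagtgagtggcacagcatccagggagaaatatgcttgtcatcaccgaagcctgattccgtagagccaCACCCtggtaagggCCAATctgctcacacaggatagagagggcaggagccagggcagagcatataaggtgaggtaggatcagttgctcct
Alas2: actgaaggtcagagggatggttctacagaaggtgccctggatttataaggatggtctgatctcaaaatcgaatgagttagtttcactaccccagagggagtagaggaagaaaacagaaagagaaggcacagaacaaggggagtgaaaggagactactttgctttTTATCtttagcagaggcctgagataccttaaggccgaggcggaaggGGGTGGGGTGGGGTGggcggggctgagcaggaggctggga
Klf1: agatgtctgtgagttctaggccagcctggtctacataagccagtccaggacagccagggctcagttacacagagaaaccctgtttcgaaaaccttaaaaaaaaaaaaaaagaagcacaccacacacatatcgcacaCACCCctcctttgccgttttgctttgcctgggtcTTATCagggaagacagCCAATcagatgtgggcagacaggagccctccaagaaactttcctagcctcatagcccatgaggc
GATAA was found in 8 of the 8 promoters and in 22.6% of all 32851 RefSeq mouse promoters of the same length. CACCC was found in 8 of the 8, against 52% of all promoters, and CCAAT in 6 of the 8, all but Hba-x and Alas2, against 33.8%. No matches of different motifs overlapped within these 8 windows. The promoters of Hba-a1 and Hba-a2 share a run of 247 identical bases. A match is a description of the letters and not a measured binding site.

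Library totals ran from 25995340 to 35306935 counts. Of 15825 genes that passed a filter on low counts, 1535 (9.7%) were higher and 1499 (9.47%) lower in mutants at an adjusted p under 0.05, by edgeR's quasi-likelihood test with Benjamini-Hochberg adjustment. In 1711 tested genes (10.8%) every mutant library lay above every wildtype library, and in 1775 (11.2%) below, 22% in either direction. The noncoding RNA Gm42418 took 4.11% to 6.91% of counts in 5 mutants and 4.54% in wildtype 1, against 0.0673% in mutant 2 and 0.0663% and 0.0708% in wildtypes 2 and 3. Col4a1 itself, whose counting does not separate the mutant allele, averaged 1029 ± 82.7 CPM in mutants and 625.2 ± 92.6 CPM in wildtypes.

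Red cell genes were called in both directions, with more of them higher than lower. Of the 10 genes, 9 were tested, of which 5 rose in mutants (Hba-a1, Hba-a2, Hba-x, Hbb-bs and Slc4a1), 1 fell (Klf1) and 3 did not pass the test (Hbb-bt, Hbb-y and Alas2). That is 5 of 9 higher against 9.7% of all tested genes, and 1 of 9 lower against 9.47%. In 7 of the 9 every mutant library lay above every wildtype library, against 10.8% of all tested genes, and in 1, Klf1, every mutant lay below, against 11.2%. The 1 gene called lower and the 1 lying below are each near the share over all tested genes. The median fitted log2 fold change of the 9 was 2.09, beside -0.002 over all tested genes. Hba-x passed the filter through the mutants, with 6 of 6 mutants and 1 of 3 wildtypes above 0.346 CPM, and the other tested genes except Hbb-y were above it in every library. Hbb-bh1 was above it in no library and was not tested. Since Hba-x entered the test through the group in which it is high, these counts and the median are a description only.

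**Figure D1:**
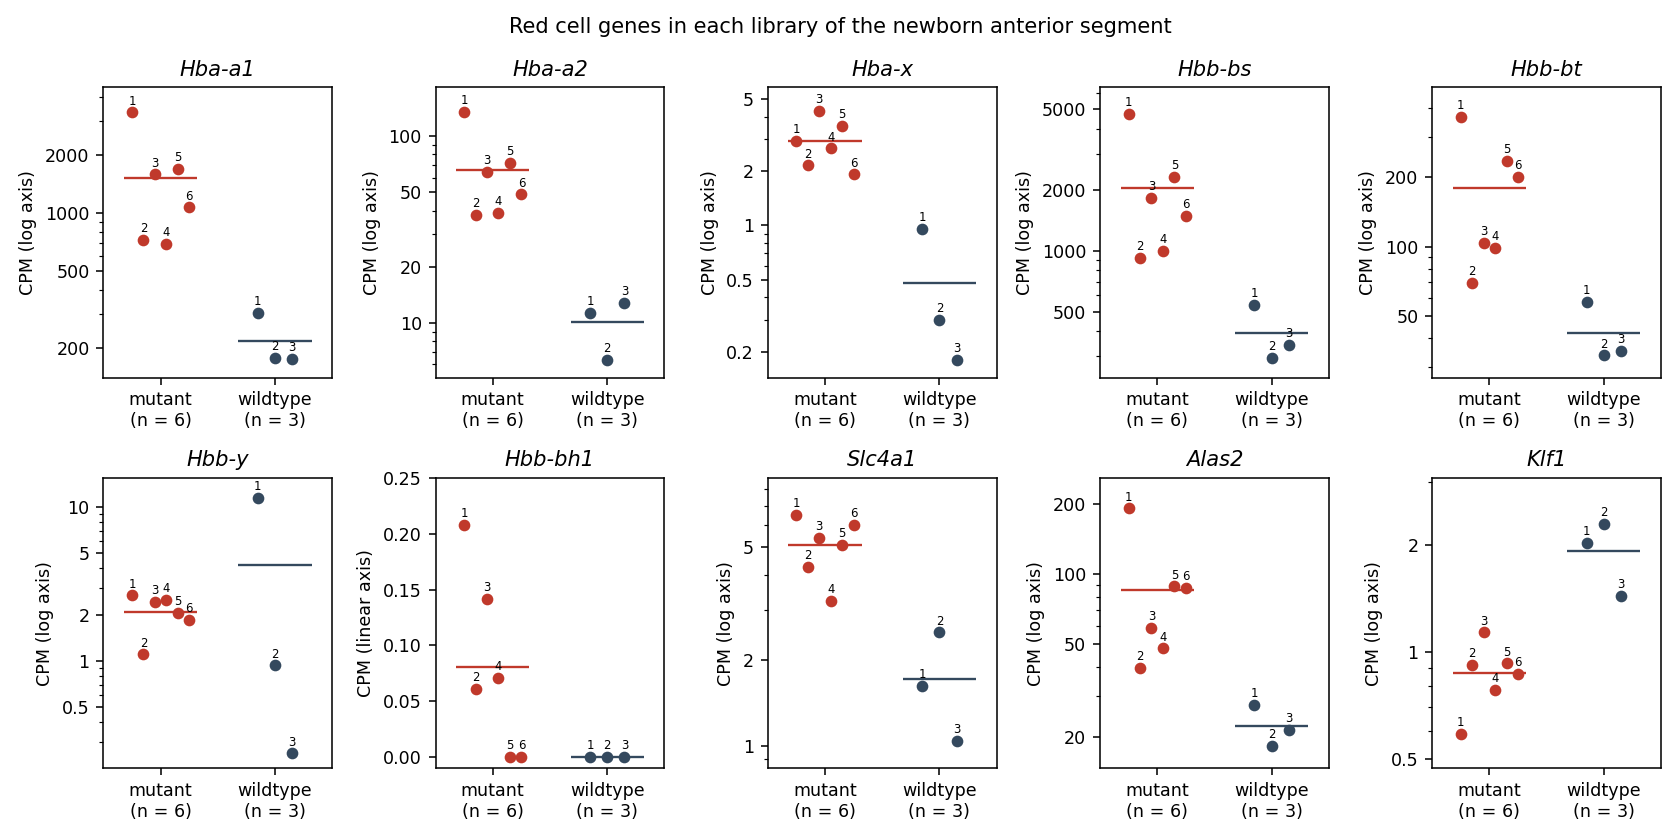
CPM of each of the 10 red cell genes in mutant libraries 1 to 6 and wildtype libraries 1 to 3, numbered points with the group mean as a line, on log axes except for Hbb-bh1. Adult globins, Hba-x, Slc4a1 and Alas2 lie higher in every mutant library than in any wildtype library, Klf1 lies lower in every mutant, and Hbb-y overlaps because wildtype 1 holds 11.5 CPM.

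Among the adult alpha globins, Hba-a1 ranged from 695 to 3323 CPM over mutants, with a median of 1331 CPM, against 304, 178 and 176 CPM in wildtypes 1 to 3. The lowest mutant, library 4, was still above the highest wildtype. The fitted log2 fold change was 2.79 ± 0.63 (SE, 6.92-fold higher, adjusted p = 0.022 by edgeR's quasi-likelihood test). Hba-a2 ranged from 37.9 to 135 CPM in mutants, with a median of 56.7 CPM, against 11.3, 6.37 and 12.8 CPM in wildtypes. Its groups were likewise apart, at a log2 fold change of 2.71 ± 0.53 (adjusted p = 0.0135, edgeR). The call of Hba-a1 was lost without wildtype 1, 2 or 3 (adjusted p = 0.0871, 0.066 and 0.0837, edgeR), and that of Hba-a2 without wildtype 1 (adjusted p = 0.0821, edgeR), with fitted log2 fold changes of at least 2.37 over the fits that left out 1 library.

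The alpha pair encode the same chain and are near copies. Of the 50-base windows of the Hba-a2 transcripts, 89.3% also occur in Hba-a1 transcripts, and of those of Hba-a1, 72.3% occur in Hba-a2. Counts of Hba-a1 were 17.9 to 24.6 times those of Hba-a2 in mutants and 26.8, 27.95 and 13.8 times in wildtypes 1 to 3, a split that depends on how reads matching both were counted. The direction was the same for both genes.

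Among the adult beta globins, Hbb-bs ranged from 918 to 4759 CPM in mutants, with a median of 1649 CPM, against 537, 294 and 342 CPM in wildtypes. The groups did not overlap, and mutant 2, the lowest mutant, lay nearest to wildtype 1. The fitted log2 fold change was 2.39 ± 0.63 (5.24-fold higher, adjusted p = 0.0383, edgeR). Of the 5 higher calls, this one was lost in the most settings. It was lost without mutant 3, 5 or 6 (adjusted p = 0.0638, 0.0643 and 0.0549, edgeR), without wildtype 1, 2 or 3 (0.12, 0.105 and 0.124), without the filter on low counts (0.0522), and with the Gm42418 split as a covariate (log2 fold change 1.83, adjusted p = 0.0952).

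Hbb-bt ranged from 69.3 to 366 CPM in mutants, with a median of 152 CPM, against 57.5, 33.6 and 35.3 CPM in wildtypes. Every mutant was again above every wildtype, but the log2 fold change of 2.09 ± 0.62 did not pass the test (adjusted p = 0.0572, edgeR). It passed with DESeq2 (adjusted p = 0.00252), limma-voom with quality weights (0.0338), with the trend over exon length removed (edgeR, 0.0431) and without mutant 2 (edgeR, 0.0367). Hbb-bs and Hbb-bt are the adult beta genes of the reference strain's haplotype, and of the 50-base windows of Hbb-bt transcripts 58.3% also occur in those of Hbb-bs. Counts of Hbb-bs were 7.35 to 17.6 times those of Hbb-bt in mutants and 8.75 to 9.71 times in wildtypes, inside the mutants' range.

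The embryonic genes were near the lower limit of the data and did not move alike. Hba-x, the alpha-like (zeta) chain of the embryo, ranged from 1.92 to 4.31 CPM in mutants, with a median of 2.81 CPM, against 0.958, 0.2998 and 0.180 CPM in wildtypes. The groups did not overlap, and the log2 fold change was 2.61 ± 0.45 (6.09-fold higher, adjusted p = 0.00211, edgeR). Since Hba-x entered the test through the mutants, this p is not independent of the filter. Over the 19 alternative settings, one of them without the filter, the log2 fold change was between 2.21 and 3.60 and the adjusted p at most 0.0128.

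Hbb-y, an embryonic beta-like chain, ranged from 1.11 to 2.67 CPM in mutants, with a median of 2.23 CPM, against 11.5, 0.937 and 0.252 CPM in wildtypes 1 to 3. Wildtype 1 was above every mutant, while wildtypes 2 and 3 were below every mutant. The log2 fold change of -1.01 ± 0.86 did not pass the test (adjusted p = 0.458, edgeR), and without wildtype 1 it was 1.82, which did not pass either. Hbb-bh1, the other embryonic beta-like gene, had 6, 2, 5, 2, 0 and 0 counts in mutants 1 to 6 and 0 counts in each wildtype. Set against a floor of 3 counts over the wildtype group, the observed mutant counts gave a depth-scaled ratio of 2.17. The floor allows for counting error in the wildtypes only, not in the mutants. Mutants 5 and 6 had 0 counts like the wildtypes, so the groups overlapped and no direction is read from Hbb-bh1. Transcripts of Hba-x share 0 windows of 50 bases with those of Hba-a1, and transcripts of Hbb-y share 0 with those of Hbb-bs or Hbb-bh1.

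As a share of all counts, the 7 globins took 0.843% of mutant 1, 0.181% of mutant 2, 0.358% of mutant 3, 0.179% of mutant 4, 0.442% of mutant 5 and 0.272% of mutant 6, against 0.0882%, 0.0527% and 0.0591% of wildtypes 1 to 3. The means were 0.379% ± 0.249 in mutants and 0.0667% ± 0.0189 in wildtypes (SD, n = 6 and 3), and counting error is small beside these spreads, with a Wilson 95% interval of 0.0871% to 0.0893% in wildtype 1. Globins were under 1% of the counts in every library.

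The make-up of the globin counts also differed. Adult beta counts were 1.16 to 1.502 times adult alpha counts in mutants (1.40 ± 0.140, n = 6), against 1.89, 1.78 and 2.00 times in wildtypes 1 to 3 (1.89 ± 0.111, n = 3). Every mutant had a lower ratio than every wildtype, and no test was made. The ratio also depends on how reads matching both copies of a pair were counted. The alpha copies share more of their 50-base windows (72.3% and 89.3%) than the beta copies (53.2% and 58.3%). Its value is therefore not read as the balance of the chains. Embryonic genes made up 0.0677% to 0.285% of globin counts in mutants, against 1.348%, 0.241% and 0.0761% in wildtypes 1 to 3, where the Wilson 95% interval of wildtype 1 was 1.21% to 1.498%. The high value of wildtype 1 is that of Hbb-y, at 1.89% of its beta-like counts, whereas Hba-x was 0.303% of its alpha-like counts, within the mutants' range of 0.0850% to 0.363%.

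**Figure D2:**
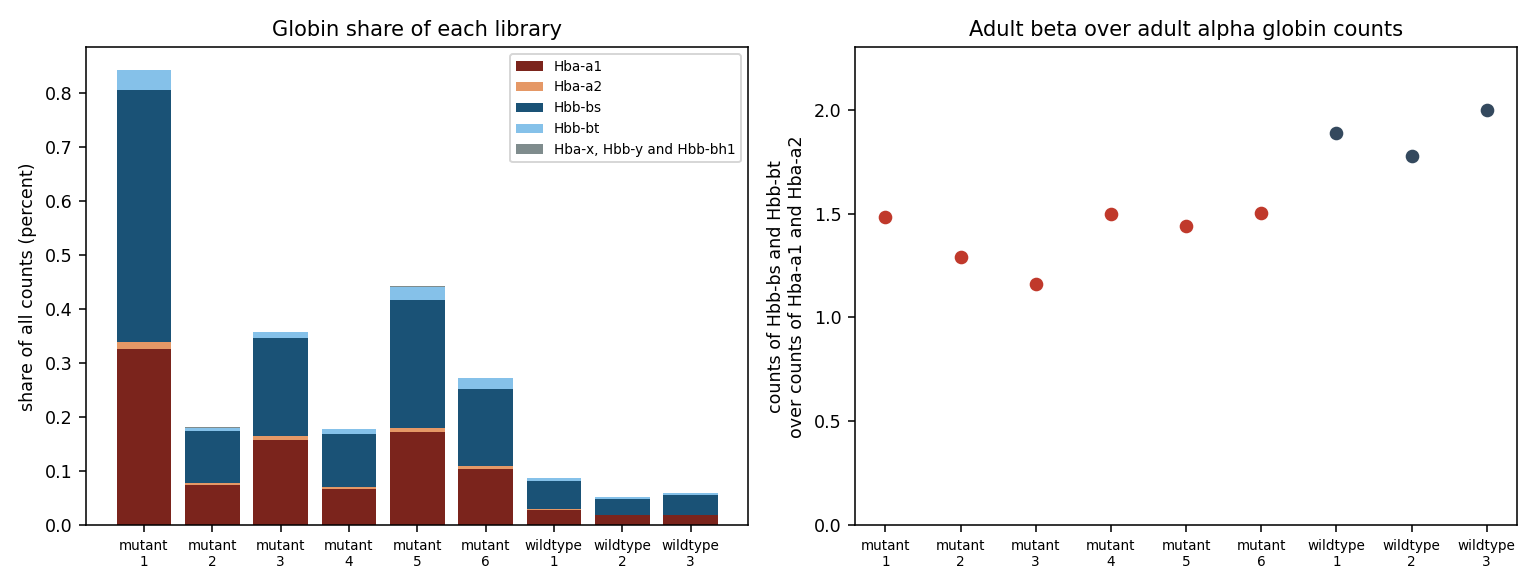
Left, the percent of all counts on each globin in mutants 1 to 6 and wildtypes 1 to 3 as stacked bars; right, the ratio of adult beta to adult alpha counts in the same libraries. Globin shares run from 0.179% to 0.843% in mutants and from 0.0527% to 0.0882% in wildtypes, and the ratio is at most 1.502 in mutants and at least 1.78 in wildtypes.

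Per kilobase of exon, the order of mean levels in mutants was Hbb-bs (2667 CPM per kb), Hba-a1 (1868), Hbb-bt (255), Hba-a2 (99.4), Alas2 (35.7), Hbb-y (3.31), Hba-x (3.12), Slc4a1 (1.04), Klf1 (0.569) and Hbb-bh1 (0.131). In wildtypes the means were 509 CPM per kb for Hbb-bs, 270.0 for Hba-a1, 59.9 for Hbb-bt, 15.2 for Hba-a2, 9.34 for Alas2, 6.66 for Hbb-y, 1.253 for Klf1, 0.511 for Hba-x, 0.353 for Slc4a1 and 0 for Hbb-bh1. The 5 highest genes kept their order in both groups, and Klf1 stood above Slc4a1 and Hba-x in wildtypes and below both in mutants. The wildtype mean of Hbb-y is set by wildtype 1, and without it the mean was 0.939 CPM per kb, below Klf1. The neighbours Hbb-bs and Hba-a1 overlapped in their mutant ranges, but within every library Hbb-bs stood above Hba-a1. Hbb-y and Hba-x changed order between mutants, at 4.21 and 3.14 CPM per kb in mutant 1 and 1.75 and 2.29 in mutant 2.

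Slc4a1 encodes band 3, the anion exchanger that carries bicarbonate across the red cell membrane and anchors its skeleton, and it accumulates late in red cell maturation. It ranged from 3.24 to 6.51 CPM in mutants, with a median of 5.26 CPM, against 1.62, 2.51 and 1.04 CPM in wildtypes. The groups did not overlap. The log2 fold change was 1.56 ± 0.29 (2.95-fold higher, adjusted p = 0.00294, edgeR), and the call held in all 19 alternative settings, at 1.30 to 1.98 on the log2 scale and an adjusted p of at most 0.0318.

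Alas2 encodes the red cell form of 5-aminolevulinate synthase, the first enzyme of haem synthesis. It ranged from 39.8 to 192 CPM in mutants, with a median of 73.0 CPM, against 27.5, 18.4 and 21.4 CPM in wildtypes. Every mutant was above every wildtype, and mutant 1 stood far above the next mutant, library 5, at 88.6 CPM. The log2 fold change of 1.93 ± 0.57 missed the threshold (3.81-fold, adjusted p = 0.053, edgeR). Without mutant 1 it was smaller but passed, at 1.52 (adjusted p = 0.00669, edgeR), and it also passed without mutant 2 (0.0367, edgeR), with a filter of at least 1 CPM in 3 libraries (0.0496, edgeR), with DESeq2 (0.00177) and with limma-voom (0.0277).

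Klf1 was the one gene of the 10 that was called lower. It ranged from 0.589 to 1.14 CPM in mutants, with a median of 0.895 CPM, against 2.03, 2.29 and 1.44 CPM in wildtypes. These rest on 17 to 40 counts in each mutant, against 55, 61 and 40 counts in wildtypes, and every mutant was below every wildtype. Klf1 fell by 1.13 ± 0.32 on the log2 scale (SE, 2.19-fold lower, adjusted p = 0.0228, edgeR). The call was lost without wildtype 1 or 2 (adjusted p = 0.117 and 0.0789, edgeR), with the trend over exon length removed (log2 fold change -0.88, adjusted p = 0.0863) and with the Gm42418 split as a covariate (log2 fold change -1.13, adjusted p = 0.0644), but the sign held in every setting.

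Mature genes were then set against Klf1 within each library, as log2 ratios of counts that are not scaled for length and have no test. The adult globins to Klf1 ratio was 13.79, 10.87, 11.60, 11.16, 12.16 and 11.63 in mutants 1 to 6, against 8.80, 7.80 and 8.60 in wildtypes 1 to 3. The groups were apart, with means of 11.87 ± 1.04 and 8.40 ± 0.53 (SD) in mutants and wildtypes, an 11.1-fold difference. The Slc4a1 to Klf1 ratio was 3.43, 2.19, 2.23, 2.02, 2.45 and 2.77 in mutants, against -0.32, 0.13 and -0.46 in wildtypes. In plain counts Slc4a1 was 4.07 to 10.8 times Klf1 in mutants and 0.728 to 1.10 times Klf1 in wildtypes.

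The Alas2 to Klf1 ratio was 8.30, 5.41, 5.68, 5.91, 6.56 and 6.62 in mutants, against 3.75, 2.999 and 3.88 in wildtypes, means of 6.41 ± 1.04 and 3.54 ± 0.48 that differ 7.30-fold. All 3 ratios were higher in every mutant than in any wildtype. That follows from the gene values, since the adult globins, Slc4a1 and Alas2 were each higher and Klf1 lower in every mutant. The ratios also share the same Klf1 counts, so they are not separate results. Leaving out any 1 library kept the differences between 3.085 and 3.67 for the globins, 2.55 and 2.90 for Slc4a1 and 2.49 and 3.069 for Alas2.

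**Figure D3:**
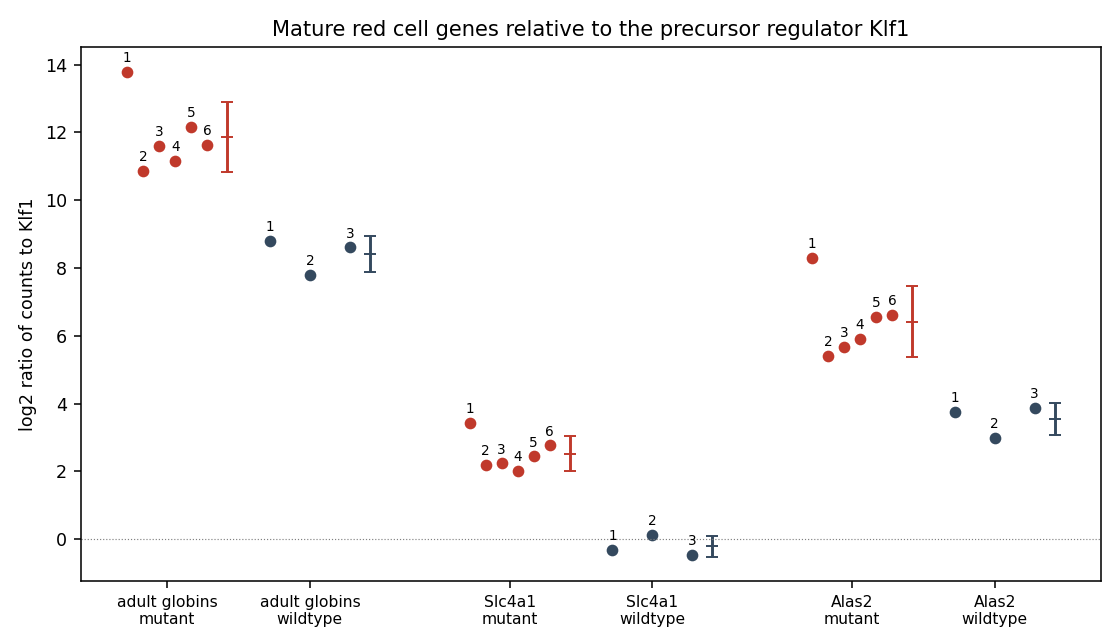
Log2 ratio of counts of adult globins, Slc4a1 and Alas2 to Klf1 in each mutant library (1 to 6) and each wildtype library (1 to 3), with the mean and SD of each group as a bar. All 6 mutants lie above all 3 wildtypes for each ratio, by a mean of 3.47, 2.73 and 2.87 on the log2 scale.

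Within the Gm42418 split the direction was the same on both sides for each tested gene except Hbb-y. Among the 6 libraries above 1%, the mean of 5 mutants was 5.52 times wildtype 1 for Hba-a1, 4.24 times for Hbb-bs, 3.22 times for Hba-x, 3.24 times for Slc4a1 and 3.44 times for Alas2. Among the 3 libraries below it, mutant 2 was 4.10, 2.88, 8.96, 2.40 and 2.00 times the mean of wildtypes 2 and 3 for the same genes in that order. Klf1 was lower in mutants on both sides, 2.35-fold above the split and 2.02-fold below it. Neither side has more than 2 wildtypes, so no test within a side was made.

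The mutants also varied among themselves. The ratio of the highest to the lowest mutant was 5.27 for Hbb-bt, 5.19 for Hbb-bs, 4.81 for Alas2, 4.78 for Hba-a1 and 3.58 for Hba-a2, against 2.25 for Hba-x, 2.01 for Slc4a1 and 1.93 for Klf1. The SD of log2 CPM over mutants was 0.874 for Hbb-bs, larger than that of 94.6% of tested genes, and 0.365 for Slc4a1, larger than that of 77.2%, with a median of 0.2 over all tested genes. Mutant 1 was highest for all 4 adult globins, Hbb-y, Hbb-bh1, Slc4a1 and Alas2 and lowest for Klf1. Mutant 4 was the lowest for Hba-a1 and Slc4a1, and mutant 2 for Hba-a2, both adult beta globins, Hbb-y and Alas2.

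The genes whose profile over the 9 libraries was nearest to that of the summed globins were found by the root mean square difference of centred log2 CPM, among 13955 genes of at least 1 CPM. Hbb-bs, which makes up most of the sum, ranked 1 (0.0766), Hba-a1 2 (0.152), Hba-a2 3 (0.302), Alas2 5 (0.375) and Hbb-bt 6 (0.399). Slc4a1 ranked 24 (0.695) and Hba-x 29 (0.726), whereas Hbb-y ranked 12860 (1.5049) and Klf1 13890 (1.82). Alas2 thus followed the globins more closely than Slc4a1 did on this measure.

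The nearest genes outside the 10 were Prph, a neuronal intermediate filament gene (rank 4, 0.339), Clec4n, the C-type lectin Dectin-2 of myeloid cells (0.522), Fcgr4, an IgG Fc receptor (0.598), Hmox1, the enzyme that opens the haem ring (0.637), and Hk3, a hexokinase of blood cells (0.656). Hmox1 ranged from 287 to 473 CPM in mutants, with a median of 375 CPM, against 46.7, 48.0 and 49.99 CPM in wildtypes, and rose by a log2 fold change of 2.98 ± 0.15 (adjusted p = 9.19e-09, edgeR). Clec4n averaged 33.8 ± 7.87 CPM in mutants and 5.78 ± 1.12 CPM in wildtypes, a log2 fold change of 2.55 (adjusted p = 2.07e-06, edgeR). Prph, at 1.69 ± 1.04 CPM in mutants and 0.354 ± 0.122 CPM in wildtypes, was also called higher (adjusted p = 0.0105, edgeR). All 5 were called higher in mutants, with every mutant above every wildtype, so the measure includes the difference between the groups.

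Of 12 listed genes for haem synthesis and mitochondrial iron, Alas2 among them, all 12 were tested, 1 rose (against 9.7% of all tested genes) and 3 fell (against 9.47%), and the median of the list was -0.23 on the log2 scale. Without Alas2 the other 11 gave 1 higher, 3 lower and a median of -0.23, so the single higher call is near the share over all genes. Of the 12, 4 had every mutant below every wildtype and 2 every mutant above, against 11.2% and 10.8% of all tested genes. At an unadjusted p under 0.05 (edgeR), 7 of the 12 were lower and 2 higher. The share of all tested genes under that unadjusted p is not given in this report, so such counts are descriptions only. Slc25a37 (mitoferrin 1, the mitochondrial iron importer of red cell precursors) averaged 14.6 ± 2.03 CPM in mutants and 9.33 ± 0.784 CPM in wildtypes, 1.57-fold higher (adjusted p = 0.0075, edgeR). Slc25a38, which carries glycine for the first step, averaged 11.9 ± 1.57 CPM in mutants and 18.1 ± 1.71 CPM in wildtypes and fell by 0.61 on the log2 scale (adjusted p = 0.00695, edgeR). Ppox (log2 -0.47) and Uros (log2 -0.63), 2 enzymes of the pathway, fell as well, with adjusted p-values of 0.0263 and 0.0311 (edgeR). The calls of Slc25a37, Slc25a38, Ppox and Uros were each lost without wildtype 1, that of Ppox also without wildtype 2 and that of Uros also without mutant 3 or 6.

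Of 15 genes for the red cell membrane and skeleton, 12 were tested, 2 rose (Slc4a1 and Epb41) and 1 fell (Rhd), at a list median of 0.14 on the log2 scale. Over all tested genes 9.7% rose and 9.47% fell, so the single lower call is near that share. Slc4a1 was already counted among the red cell genes above. Without it Epb41 is the only higher call of the list, which is near the 9.7% share too. Rhd, the Rh antigen gene, averaged 0.899 ± 0.450 CPM in mutants and 2.02 ± 0.599 CPM in wildtypes and fell by 1.17 on the log2 scale (adjusted p = 0.0457, edgeR), a call lost in 8 of the 9 fits that left out 1 library. Epb41, protein 4.1, is made in many cell types and rose by 0.23 on the log2 scale (adjusted p = 0.0344, edgeR). The call of Epb41 was lost in 5 of the 9 fits that left out 1 library, and its sign turned with the exon length trend removed (-0.05). Ank1 and Epb42, skeleton genes that red cells use, averaged 0.385 and 0.505 CPM in mutants and 0.171 and 0.208 CPM in wildtypes.

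Of 9 genes found for red cell enzymes and chaperones, 7 were tested. By edgeR 0 rose and 1 fell (against 9.7% and 9.47% of all tested genes), with a list median of 0.16 on the log2 scale. At an unadjusted p under 0.05 (edgeR), 2 were higher and 2 lower, with no share over all genes given beside them. DESeq2 called 1 higher and limma-voom 1 higher, against 1923 and 2359 over all genes. The gene called lower by edgeR was Prdx2, peroxiredoxin 2, an abundant red cell protein made in other cells too. It averaged 237 ± 22.8 CPM in mutants and 301 ± 20.5 CPM in wildtypes (log2 -0.34, adjusted p = 0.0135, edgeR). The call of Prdx2 was lost without wildtype 1.

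Of 13 regulators and precursor genes, Klf1 among them, 10 were tested, 0 rose and 2 fell, Klf1 and Lmo2 (against 9.7% and 9.47% of all tested genes). The list median was -0.03 on the log2 scale. At an unadjusted p under 0.05 (edgeR), 0 were higher and 2 lower, while DESeq2 called 0 higher and limma-voom 1 higher. Klf1 was already counted among the red cell genes above, and without it Lmo2 is the only lower call, near the 9.47% share. Lmo2, a bridging partner of Tal1 and Gata1 that endothelium also expresses, averaged 55.2 ± 5.62 CPM in mutants and 71.7 ± 8.03 CPM in wildtypes (log2 -0.38, adjusted p = 0.0168, edgeR), a call lost without wildtype 1 or 3. Tal1 averaged 2.93 ± 0.397 CPM in mutants and 2.91 ± 1.40 CPM in wildtypes (log2 0.01, adjusted p = 0.983, edgeR). The transferrin receptor Tfrc averaged 9.22 ± 1.43 CPM in mutants and 9.27 ± 2.04 CPM in wildtypes (log2 -0.01, adjusted p = 0.978, edgeR). Gata1, a master regulator of red cell precursors that was too low to test, had 2 to 12 counts per mutant library, against 6, 0 and 0 counts in wildtypes 1 to 3. Myb, also untested, had 4 to 13 counts per mutant library, against 1, 2 and 7 counts in wildtypes 1 to 3. The groups overlapped for both genes, so no direction is read from them.

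**Figure D4:**
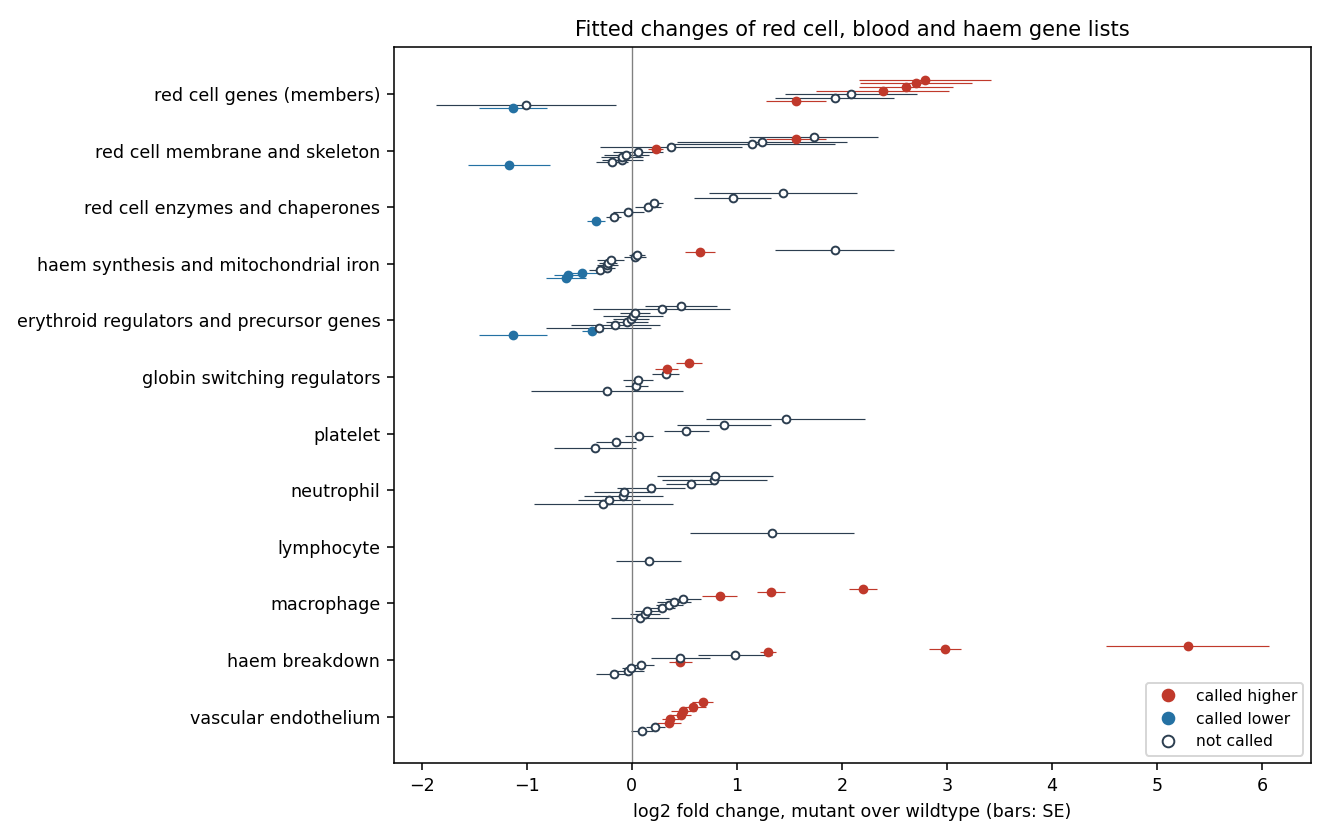
Fitted log2 fold change, mutant over wildtype, of each tested gene of 12 lists, with its SE as a bar; filled points passed edgeR's test higher or lower and open points did not. The red cell genes reach 2.79 with Klf1 at -1.13. List medians are -0.23 for haem synthesis, 0.16 for enzymes and -0.03 for regulators, and macrophage, haem breakdown and endothelial genes hold several points called higher.

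Platelet, neutrophil and lymphocyte markers gave 0 calls by edgeR in either direction, against 9.7% of all tested genes higher and 9.47% lower. With so few genes tested, 0 calls can occur at those shares. The medians of the lists were 0.29, 0.05 and 0.75 on the log2 scale, in that order. For platelets 0 of 6 tested genes were called (1 higher at an unadjusted p under 0.05, 0 by DESeq2 and 1 higher by limma-voom), and the summed level of the list was 49.4 to 92.2 CPM in mutants, against 60.4 to 69.7 CPM in wildtypes. For neutrophils 0 of 8 were called (1 higher at an unadjusted p under 0.05, 0 by either other tool), at 11.5 to 23.0 CPM in mutants against 12.2 to 24.8 CPM in wildtypes, and for lymphocytes 0 of 2 (0 unadjusted and 0 by either other tool), at 1.88 to 3.03 CPM in mutants against 1.95 to 2.80 CPM in wildtypes. The summed ranges overlapped for all 3 lists, unlike those of the 10 red cell genes, at 1800.0 to 8788 CPM in mutants against 537 to 953 CPM in wildtypes. Adult globins make up most of the red cell sum. Most of the platelet sum is Pf4, at a mean of 44.9 CPM in mutants and 42.9 CPM in wildtypes. These sums therefore compare a few abundant genes and not the cell types as a whole.

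Some macrophage and haem breakdown genes were also higher in mutants. Of 10 macrophage markers, 3 rose, against 9.7% of all tested genes (Lyz2, Cd68 and Adgre1; median of the list 0.38 on the log2 scale), with a summed level of 376 to 535 CPM in mutants against 267 to 279 CPM in wildtypes and 0 of the 10 at 0. Of 10 tested haem breakdown genes, 4 rose, against the same 9.7%, which were Hmox1, Slc40a1 (the iron exporter ferroportin), Spic (a transcription factor of iron-recycling macrophages) and Fth1 (ferritin heavy chain), with a list median of 0.46 on the log2 scale. The summed level of the list overlapped, at 3433 to 5006 CPM in mutants against 3514 to 3896 CPM in wildtypes. Slc40a1 averaged 127 ± 6.63 CPM in mutants and 51.6 ± 0.823 CPM in wildtypes, a log2 fold change of 1.29 (adjusted p = 3.49e-08, edgeR). Spic had 212 counts over the mutants and 2 over the wildtypes, a depth-scaled ratio of 46.1 with an exact 95% interval of 12.6 to 383 for counting error. Spic passed the filter on low counts through the mutants, so its call is not independent of that filter. The part of these cells in the globin levels was not tested.

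Vascular and tissue markers were read in the same way. Of 8 endothelial genes, with a median of 0.42 on the log2 scale, 6 rose, against 9.7% of all tested genes, among them Cdh5 at 148 ± 13.2 CPM in mutants and 92.9 ± 12.8 CPM in wildtypes (1.595-fold, adjusted p = 0.000813, edgeR), and the summed level of the list was 659 to 776 CPM in mutants against 486 to 561 CPM in wildtypes. Of 10 anterior segment markers 2 fell, the corneal stroma genes Kera and Lum, and of 4 tested lens genes 1 fell, Bfsp2, against 9.47% of all tested genes. The calls of Kera, Lum, Bfsp2 and Fth1 were lost without wildtype 1. Among the endothelial genes, Kdr, Tie1 and Emcn each lost the call in 1 of the 9 fits that left out 1 library, and Cdh5 in 0. Pecam1 and Tek were called although their groups overlapped. The lens list, with Lim2 at 0 in every library, summed to 36.4 to 42.9 CPM in mutants against 48.0 to 54.8 CPM in wildtypes, and the retina list, of which 1 gene was tested and did not pass and Rcvrn was at 0, to at most 0.860 CPM in mutants and 0.898 CPM in wildtypes. The part of the vessel or tissue content in the red cell gene levels was not tested.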

How the data were processed

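The deposited values are the authors' read counts for each Ensembl gene, unnormalized whole numbers with 1 column to a library; 0 columns lacked a sample. The submitters' processing notes name STAR 2.6.1, HTSeq 0.6.1, DESeq2 1.6.3, GRCm38 and mm10, without saying what each did. Which annotation release and strand setting were used these sources do not give. Symbols, positions and exon lengths came from GENCODE M21 (GRCm38), which held 34490 of the 35275 identifiers; 145 of 146 listed genes were found.

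Labels of genotype set the groups, and each library was 1 replicate, since no library within a group matched another within sampling noise (chi-square over genes). Genotype was the only term of a robust quasi-likelihood fit in edgeR 4.0.16 (R 4.3.3), after TMM and the default filter by group (at least 10 counts, 0.346 CPM, in 3 libraries). P-values were adjusted by Benjamini-Hochberg over all 15825 genes, with a threshold of 0.05, and the fit was tested on simulated data. CPM used TMM library sizes. Log2 profiles and ratios used a prior count of 0.5. Intervals (Wilson or exact, 95%) cover counting error only, and the floor of 3 counts covers that of the wildtypes only.

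The 10 genes and the lists were chosen with earlier results of these data known. Named genes are the 10, up to 4 tested genes of lowest p per list, Col4a1, and the 5 genes nearest to the summed globins; some of these are not reported here. Genes named outside this rule, such as Gata1, Myb, Tfrc, Tal1, Ank1, Epb42, Pf4, Pecam1, Tek, Apex2 and Gm42418, were chosen after their values were seen. Alternatives were other scalings (including one with globins left out), other filters, DESeq2 1.42.0, limma 3.58.1 (voom), removal of an exon length trend (lowess span 0.3), a replicate block, each library left out, other prior counts and other thresholds. A covariate for the share of Gm42418 above or below 1% was chosen after seeing the data.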

Additional observations from a re-analysis of the deposited data

Results flagged for a closer look

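In mutant 1 the value of 5 genes stood apart from the other 5 mutants, by a gap to the nearest library that was over 0.625 of the group's range. Alas2 was 192 CPM, Hba-a2 135 CPM and Hbb-bs 4759 CPM there, each the highest of the mutants. Bnip3l, a mitophagy receptor used in red cell maturation, was 272 CPM and Rhd 1.77 CPM, again the highest mutant values, although the mutant mean of Rhd was below that of the wildtypes. For normally distributed values chance alone gives such a gap in about 1 of 20 groups. Genes were examined as CPM without logs, so that rate need not hold for them, and 70 values were examined. Without mutant 1, Alas2 was called higher with a log2 fold change of 1.52 (adjusted p = 0.00669, edgeR).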

How the results depend on the processing

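Among the red cell genes, 5 were called higher and 1 lower. With each library left out in turn, 2 to 7 were called higher and 0 to 1 lower, over all genes 303 to 1688 higher and 235 to 1577 lower, and in the blood and haem lists 7 to 21 higher and 0 to 8 lower. limma-voom called 2359 genes higher and 2335 lower, and 26 list genes higher. With the exon length trend removed 1018 genes were called higher and 0 red cell genes lower. The Gm42418 covariate gave 938 higher and 940 lower, 0 red cell genes lower and 2 list genes lower. A threshold of 0.01 gave 520 higher and 512 lower, 2 red cell genes higher and 0 lower, and 1 list gene lower, and one of 0.10 gave 27 list genes higher. Epb41 turned to -0.05 with the length trend removed. The embryonic share of globin counts, mutant minus wildtype, was between -0.6281 and 0.007837 percentage points over the libraries left out, positive only without wildtype 1, and -0.389 with all. The cause of these shifts was not tested.

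Replicate numbers did not pair the libraries, since deviations of same-numbered libraries correlated at 0.095, 0.026 and -0.104. Over all pairs of a wildtype and a mutant the correlations ran from -0.163 (wildtype 1 and mutant 4) to 0.19 (wildtype 3 and mutant 5). Wildtype 3 correlated at -0.142, -0.08 and -0.104 with mutants 1 to 3 and at 0.057, 0.19 and 0.145 with mutants 4 to 6. The source of these values was not tested. With the replicate number as a block, 814 genes were called higher and 671 lower, 5 red cell genes higher and 0 lower (Klf1 -1.13 on the log2 scale, adjusted p = 0.17, edgeR), and 0 list genes lower.

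Depth limits Hbb-bh1, Gata1 and Myb, which were too low to test, and Klf1, which rests on at most 61 counts per library.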

Other observations

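Other genes with a globin fold were mostly below the filter. Cygb, cytoglobin of connective tissue cells, averaged 39.2 ± 2.35 CPM in mutants and 40.7 ± 2.55 CPM in wildtypes (log2 -0.06, adjusted p = 0.695, edgeR). Hbq1b and Hbq1a, theta-like genes of the alpha cluster that were too low to test, had 47 and 24 counts over the 6 mutants and 8 and 0 counts over the 3 wildtypes. Hbb-bh0 and Hbb-bh2 were at 0 in every library.

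Of 6 regulators known to silence embryonic globin genes or to act in that switch, 2 rose, against 9.7% of all tested genes. Sox6, a repressor of the embryonic beta-like gene that cartilage and other tissues also make, averaged 27.9 ± 1.82 CPM in mutants and 19.2 ± 3.94 CPM in wildtypes (log2 0.54, adjusted p = 0.00747, edgeR), a call lost without wildtype 1. Zbtb7a averaged 42.3 ± 1.89 CPM in mutants and 33.7 ± 6.49 CPM in wildtypes (log2 0.33, adjusted p = 0.0452, edgeR), a call lost in 6 of the 9 fits that left out 1 library. Bcl11a averaged 22.0 ± 3.64 CPM in mutants and 21.1 ± 3.48 CPM in wildtypes and did not pass (adjusted p = 0.808, edgeR).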
